A study of Mus musculus with 28 samples.

Results

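Leukocytes of B16 tumours in hosts whose regulatory T cells lack Nrp1 were compared between day 12 and an earlier day of tumour growth. The comparison holds 4 of the 28 arrays of the study: 2 at day 12 and 2 early, chosen by their titles. Messenger RNA was measured in cells sorted from tumours by CD45, the surface phosphatase of haematopoietic cells. B16.F10 is a mouse melanoma line, so tumour cells are melanocytic and lack CD45. The hosts of these 4 arrays had the genotype Nrp1L/LFoxp3Cre-YFP: Cre recombinase and YFP are expressed from Foxp3, and the floxed Nrp1 alleles are lost in cells that express Foxp3. They are called deleted hosts here, and Nrp1 is left intact in their other cells. For comparison, 4 arrays of B16 tumours came from control hosts, Foxp3Cre-YFP, 2 early and 2 at day 12. The controls carry the same Cre and YFP, so the genotypes differ in the floxed alleles. A further 4 arrays came from MC38 colon carcinomas of deleted hosts, 2 at day 6 and 2 at day 18. The titles date the early B16 arrays to day 8 and the source names to day 6, hence the name early. The labels give no ages and do not tell whether the 2 replicates of a group are separate mice, so the p-values reflect array-to-array spread that may be technical.

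Regulatory T cells (Treg) restrain other immune cells, and their lineage is set by the transcription factor Foxp3. Neuropilin-1, the product of Nrp1, is a co-receptor for semaphorins and for vascular endothelial growth factor, and on Treg it is known to support their stability inside tumours. A tumour's leukocytes are a mixture of T cells, NK cells, macrophages, monocytes and dendritic cells. In RNA from such a mixture, fewer cells of a type and less RNA per cell cannot be told apart.

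Expression is given as the deposited log2 value of 1 probe set per gene, and a change is the day 12 mean minus the early mean, so that a change of 1 is 2-fold. The standard error (SE) follows the ± sign, with n = 2 arrays in each group. Of 17097 genes, limma called 2776 changed in deleted hosts at an adjusted p of 0.05, or 16.2%. Of these, 1563 rose (9.14%) and 1213 fell (7.09%). The balance of directions depended on the scaling, with 1381 rises and 1484 falls after centring on the 75th percentile and 1411 and 1413 with cyclic loess. An unadjusted p under 0.05 was reached by 26.4% of genes. The 2 arrays of each group correlated at r = 0.991 across probe sets, against 0.979 to 0.981 between early and day 12 arrays. With 2 arrays against 2, an exact permutation test of 1 gene cannot go below p = 0.333, so the tests rest on a spread shared across the 12 groups of the study. Without day 12 deleted replicate 1 the count was 1637, and without early deleted replicate 1 it was 1726. The test of whether the change differed between deleted and control hosts called 1075 genes, or 6.29%, with 321 changes higher in deleted hosts (1.88%) and 754 lower (4.41%). That count was 627 without day 12 deleted replicate 1, 601 without early deleted replicate 1, 711 without day 12 control replicate 2 and 666 without early control replicate 1. In the text, "the difference between genotypes" is this quantity, the change in deleted hosts minus the change in control hosts. Deleted and control hosts share no array. Of the 1563 rises, 82.9% had a change above 0 in control hosts, where 49.4% of all genes did. Of the 1213 falls, 77.1% had a change below 0 there.

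The sort and the genotype were checked first. Ptprc, the gene for CD45, stood at 12.72 and 12.71 early and 12.90 and 12.77 at day 12, far above the median of all values of 3.64. Nrp1 stood at 8.05 and 7.75 early and at 9.43 and 8.84 at day 12 in deleted hosts. It rose by 1.23 ± 0.23 (2.35-fold, adjusted p = 0.000464). In control hosts it stood at 9.47 and 9.57 early and at 10.24 and 10.08 at day 12, so all 4 deleted arrays lay below all 4 control arrays. The change did not pass as different between genotypes (0.60 ± 0.32, adjusted p = 0.347). Macrophages and dendritic cells also express Nrp1, and the position of the probe set relative to the floxed part was not checked, so this says little about the labels. Foxp3 lay below the median of all values on all 4 arrays, at 2.76 and 3.19 early and 3.04 and 3.10 at day 12, and its level could not be followed. Nrp1 was the single called gene of 12 measured on the Treg list, whose median change was -0.20.

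Measures of other cells and of RNA quality also moved between the early and day 12 arrays. Melanocyte genes, listed as markers of B16 tumour cells, had a mean of 6.81 and 6.10 early and 4.86 and 5.46 at day 12 in deleted hosts. The mean of 17 macrophage genes was 7.63 on early replicate 1, 6.27 on early replicate 2, and 6.04 and 6.53 at day 12, so early replicate 1 stood apart. The control probe sets of Gapdh, 3′ minus 5′, a measure of RNA integrity, were 0.108 and 0.0786 apart early and 0.222 and 0.203 at day 12. In control hosts they were 0.183 and 0.177 apart early and 0.215 and 0.202 at day 12. The part of these measures in the results below was not tested.

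Most genes listed for glycolysis and the response to low oxygen fell. Cells that lack oxygen stabilise hypoxia-inducible factors, which bind a short element with the core letters ACGTG and raise the transport and breakdown of glucose. Of 18 measured genes on the glycolysis and hypoxia list, 13 fell and 5 did not pass, among them 3 with a change above 0. The list's median change was -0.52, beside 0.01 over all genes. The promoters of 4 of the fallen genes are shown because each holds that core. They are the 250 bases before the RefSeq transcription start on GRCm38.p6, 5′ to 3′ on the gene's strand, with ACGTG on either strand in capitals. They lie at chrX:106186850-106187099 for Pgk1 and chr7:46845554-46845803 for Ldha, both on the plus strand. Hk2 lies at chr6:82774455-82774704 on the minus strand and Slc2a1 at chr4:119108495-119108744 on the plus strand.
Pgk1: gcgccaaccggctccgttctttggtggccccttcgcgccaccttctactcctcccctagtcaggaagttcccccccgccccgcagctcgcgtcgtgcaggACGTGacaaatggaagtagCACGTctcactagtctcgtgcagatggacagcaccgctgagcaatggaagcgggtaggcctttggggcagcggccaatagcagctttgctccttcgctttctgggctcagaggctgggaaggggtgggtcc
Ldha: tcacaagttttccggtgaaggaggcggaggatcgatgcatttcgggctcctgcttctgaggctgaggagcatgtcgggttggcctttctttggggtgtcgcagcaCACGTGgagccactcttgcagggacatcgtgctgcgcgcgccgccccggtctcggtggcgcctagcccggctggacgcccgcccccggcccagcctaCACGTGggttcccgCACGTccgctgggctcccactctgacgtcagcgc
Hk2: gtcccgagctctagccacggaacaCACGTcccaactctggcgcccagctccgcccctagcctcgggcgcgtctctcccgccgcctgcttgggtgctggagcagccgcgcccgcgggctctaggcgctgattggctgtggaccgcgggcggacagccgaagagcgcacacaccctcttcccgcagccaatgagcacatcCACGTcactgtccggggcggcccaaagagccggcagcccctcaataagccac
Slc2a1: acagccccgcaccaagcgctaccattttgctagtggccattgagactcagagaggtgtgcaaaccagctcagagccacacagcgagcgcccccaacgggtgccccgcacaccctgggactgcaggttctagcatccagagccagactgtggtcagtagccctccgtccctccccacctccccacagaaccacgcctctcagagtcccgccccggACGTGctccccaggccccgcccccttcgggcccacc

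In Ldha, CACGTG reads as the core on both strands, and each reading was counted, which gives 5 matches there, 2 in Pgk1, 2 in Hk2 and 1 in Slc2a1. A promoter was on record for 16 of the 18 genes, and 12 of those (75%) held ACGTG within 250 bases before a start. Among the 13605 tested genes with a promoter on record the share was 22.4%, and among all 32851 promoters 16.6%. A match describes letters and is not a measured binding site.

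The hexokinase and glucose transporter genes fell by more than the later enzymes named here. Hk2, the hexokinase that commits glucose to the cell, stood at 9.06 and 8.99 early and at 7.56 and 7.90 at day 12. It fell by 1.30 ± 0.18 (2.46-fold, adjusted p = 3.81e-05). Slc2a1, the glucose transporter GLUT1, stood at 10.03 and 10.09 early and at 9.21 and 9.30 at day 12, a fall of 0.81 ± 0.19 (adjusted p = 0.00418). In control hosts Hk2 stood at 8.80 and 8.97 early and 9.62 and 9.65 at day 12, so the 2 genotypes were close early and lay far apart at day 12. Pgk1, phosphoglycerate kinase, stood at 12.20 and 12.16 early and at 11.81 and 11.64 at day 12 (-0.46 ± 0.08, adjusted p = 0.000519). Ldha, which makes lactate, stood at 12.35 and 12.40 early and at 12.07 on both day 12 arrays (-0.31 ± 0.06, adjusted p = 0.00148). Tpi1 (-0.50), Pkm (-0.56), Aldoa (-0.36) and Gapdh (-0.25) fell as well. The calls for Aldoa and Gapdh depended on single arrays, and that for Gapdh was also lost with cyclic loess. Over the alternatives the change ran from -0.46 to -0.27 for Aldoa and from -0.31 to -0.14 for Gapdh. For each of these enzymes and the transporter, both day 12 arrays lay below both early arrays, as in 25.7% of all genes.

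Some hypoxia targets outside glycolysis also fell, while others on the list did not pass. Hmox1, haem oxygenase, stood at 7.40 and 7.08 early and at 5.28 and 5.71 at day 12, a fall of 1.75 ± 0.37 (3.36-fold, adjusted p = 0.00189). Egln3, a prolyl hydroxylase that marks hypoxia-inducible factors for destruction, fell by 1.44 ± 0.32, and Ndrg1 by 1.32 ± 0.32. Vegfa, the vascular growth factor, fell by 0.89 ± 0.28, and Bnip3, a mitophagy receptor, by 0.54 ± 0.16. The fall of Vegfa was not called when any of the 4 arrays was left out, with adjusted p up to 0.241 over the alternatives. Epas1, the gene for the hypoxia-inducible subunit HIF-2α, was not on the list but had the third largest fitted fall among the named genes. It stood at 8.08 and 7.88 early and at 3.97 and 4.54 at day 12, a fall of 3.73 ± 0.44 (13.2-fold, adjusted p = 4.45e-06). Its control values were 7.67 and 7.92 early and 6.94 and 6.62 at day 12. The other probe set of Epas1 had a smaller change in deleted hosts, of -1.08.

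In control hosts the list's median change was 0.45, and for 13 of 18 genes the test called the change lower in deleted hosts. It differed between genotypes by -2.04 ± 0.26 for Hk2 (adjusted p = 3.51e-05), -1.22 ± 0.27 for Slc2a1 (0.0057) and -1.97 ± 0.22 for Bnip3 (8.85e-06). It was -3.73 ± 0.53 for Hmox1 (9.13e-05) and -2.71 ± 0.62 for Epas1 (0.00706), though the mean over the probe sets of Epas1 gave no call, nor did leaving out day 12 deleted replicate 1. For Ldha (-0.29 ± 0.09, adjusted p = 0.0605) and Vegfa (-0.68 ± 0.39, adjusted p = 0.388) the difference did not pass. A count of 8 falls in place of 13 was left without day 12 deleted replicate 1 or without early deleted replicate 2.

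**Figure D1:**
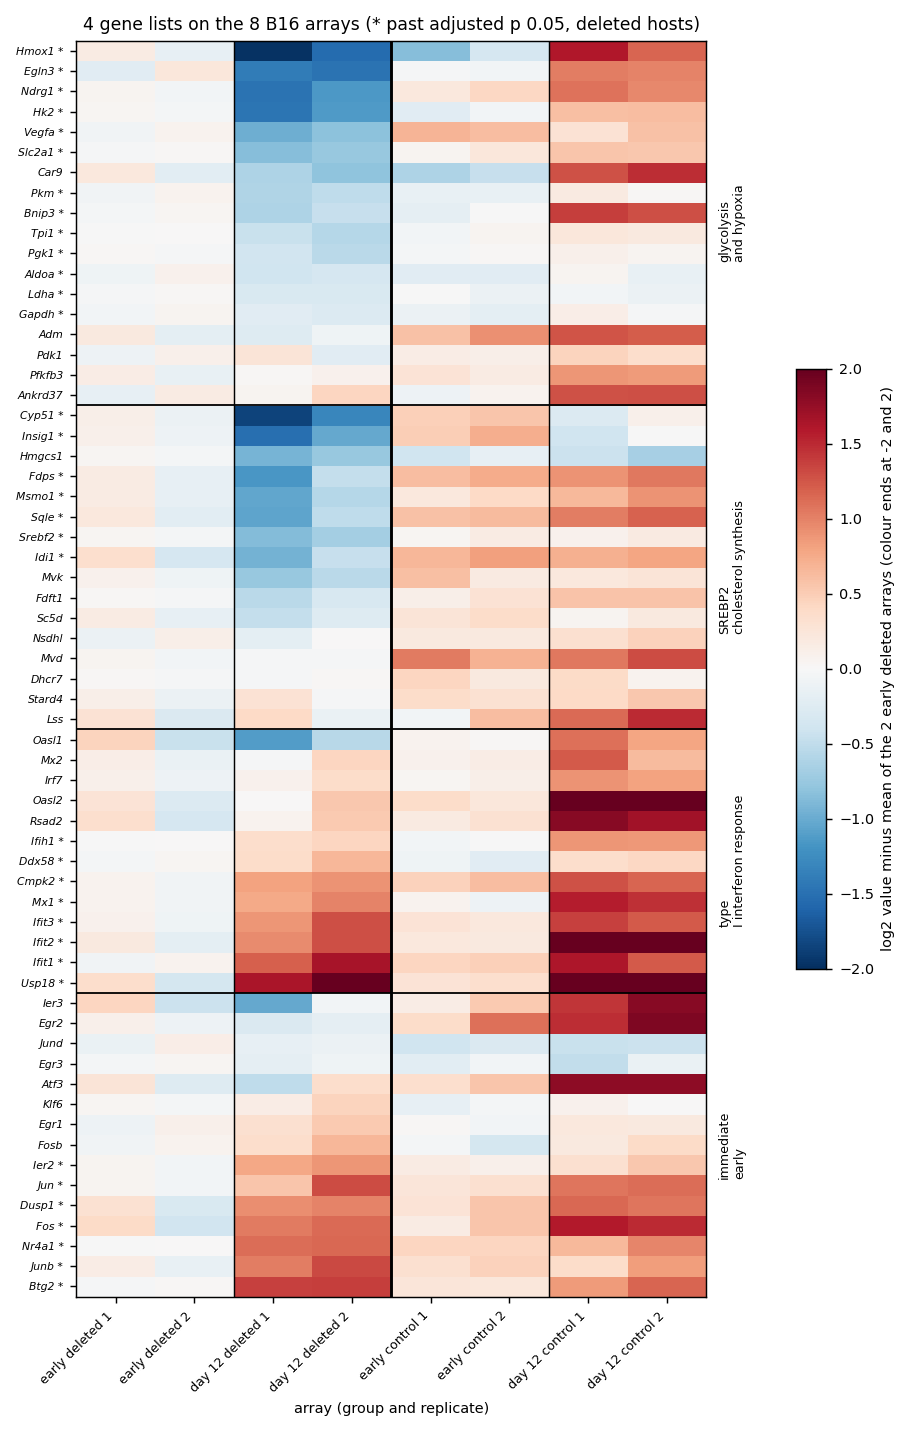
Values of 4 gene lists on the 8 B16 arrays. Each cell is the log2 value minus the mean of the 2 early deleted arrays (colour, ending at -2 and 2), rows are genes grouped by list, columns are arrays, and an asterisk marks an adjusted p under 0.05 in deleted hosts. Most glycolysis and cholesterol genes are blue on both day 12 deleted arrays, while most interferon and immediate early genes are red on day 12 arrays of both genotypes.

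Several genes of cholesterol synthesis fell too. When sterols are low, the factor SREBP2, encoded by Srebf2, switches on the enzymes of this pathway. Of 16 measured genes 7 fell, with a median change of -0.68. Cyp51, lanosterol demethylase, stood at 9.12 and 8.88 early and at 7.15 and 7.70 at day 12, a fall of 1.57 ± 0.24 (2.98-fold, adjusted p = 6.75e-05). Insig1, which holds SREBP proteins back when sterols are plentiful and is itself a target of them, stood at 8.85 and 8.64 early and at 7.23 and 7.72 at day 12 (-1.27 ± 0.23, adjusted p = 0.000444). Srebf2 itself stood at 7.94 and 7.85 early and at 7.02 and 7.21 at day 12 (-0.78 ± 0.16, adjusted p = 0.00161). Both day 12 arrays lay below both early arrays for 11 of the 16 genes, these 3 among them, against 25.7% of all genes. The enzymes Fdps (-0.82), Msmo1 (-0.81), Sqle (-0.78) and Idi1 (-0.71) fell by similar amounts, with the call for Idi1 lost under 6 of 14 alternatives (adjusted p up to 0.513). In control hosts the list's median change was 0.08. The difference between genotypes passed for 5 genes, all lower in deleted hosts, namely Fdft1, Fdps, Sqle, Msmo1 (-1.27 ± 0.28, adjusted p = 0.00604) and Srebf2 (-0.81 ± 0.23, adjusted p = 0.0355). For Insig1, which had a control change of -0.81, it did not pass (-0.46 ± 0.33). The count of 7 falls was 3 without day 12 deleted replicate 1 or without early deleted replicate 1. The difference passed for 0 to 6 genes in place of 5 when each of the 8 arrays was left out in turn, and it stayed at 5 or above only without day 12 deleted replicate 2.

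Fatty acid synthesis, the branch under SREBP1, had 1 fall among 14 measured genes (7.14%), near the 7.09% of all genes that fell. That gene was Acsl3, an acyl-CoA ligase, at 6.79 and 6.70 early and 4.22 and 4.83 at day 12 (-2.21 ± 0.31, adjusted p = 3.65e-05). The changes of its 3 probe sets ran from -2.21 to -0.34. Of 13 genes of lipid uptake and efflux, 3 fell and 1 rose. The lipid droplet coat gene Plin2 (-0.83 ± 0.20), the carrier Fabp5 (-1.20 ± 0.27) and the scavenger receptor Cd36 (-1.20 ± 0.38) fell, and the cholesterol exporter Abcg1 rose by 1.01 ± 0.16. A further probe set of Cd36 had a change above 0, and its call was lost when any of the 4 arrays was left out. Of the 13 genes 1 fell without day 12 deleted replicate 1, and without early deleted replicate 1, 0 of them. Plin2 stood at 9.24 and 9.40 early and 11.01 and 11.03 at day 12 in control hosts, and its difference between genotypes was -2.54 ± 0.29 (adjusted p = 8.85e-06).

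The largest fitted falls among the named genes were in granzymes, serine proteases that cytotoxic lymphocytes deliver into target cells. Gzmd stood at 7.53 and 7.17 early and at 3.05 and 3.11 at day 12, a fitted change of -4.27 ± 1.19 (adjusted p = 0.0149). Gzme stood at 8.11 and 7.42 early and at 3.36 and 3.91 at day 12 (-4.13 ± 1.15, adjusted p = 0.0145). Gzmc stood at 10.44 and 9.89 early and at 6.74 and 7.01 at day 12 (-3.29 ± 0.66, adjusted p = 0.00104). Early and day 12 arrays were far apart for all 3, and the day 12 means of Gzmd and Gzme lay below 3.64, the median of all values, where signal may be near background. With the day 12 side set to that median, Gzmd was at least 13.1-fold lower and Gzme at least 17.4-fold lower. These genes are near-identical neighbours, so probe sets may bind more than 1 of them and their separate values are uncertain. The SE pools the spread within all 12 groups of the study. Leaving out any 1 of the 4 arrays ended the call for Gzmd, with the change between -4.45 and -3.99 and adjusted p up to 0.0899 over the alternatives. Leaving out early replicate 1 or either day 12 array did so for Gzme, with adjusted p up to 0.104.

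In control hosts Gzmd stood at 5.41 and 4.41 early and 7.87 and 6.88 at day 12, and Gzme at 6.45 and 5.72 early and 8.49 and 7.89 at day 12. Gzmc stood there at 9.79 and 9.68 early and 10.41 and 9.36 at day 12, where the groups overlapped. Between genotypes the difference was -6.73 ± 1.69 for Gzmd (adjusted p = 0.0152), -6.24 ± 1.63 for Gzme (0.0202) and -3.44 ± 0.93 for Gzmc (0.0251). Each of these 3 calls was lost without day 12 deleted replicate 1, early deleted replicate 1, day 12 control replicate 1 or early control replicate 2, with adjusted p up to 0.0733, 0.0873 and 0.138 over the alternatives. Of 20 measured genes of cytotoxic lymphocytes, 3 fell, which are these granzymes, and 2 rose, and 1 fell without either day 12 deleted array or without early deleted replicate 1. The risers were the chemokines Ccl3, at 11.12 and 11.08 early and 12.19 and 12.22 at day 12 (1.11 ± 0.18, adjusted p = 0.000136), and Ccl4 (1.07 ± 0.20). Gzmb, the main granzyme of CD8+ T cells, stood at 13.26 and 13.51 early and 12.78 and 13.07 at day 12 (-0.46 ± 0.38, adjusted p = 0.528). Prf1, the pore protein perforin, had a change of -0.49 ± 0.45 (adjusted p = 0.577), and neither passed.

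**Figure D2:**
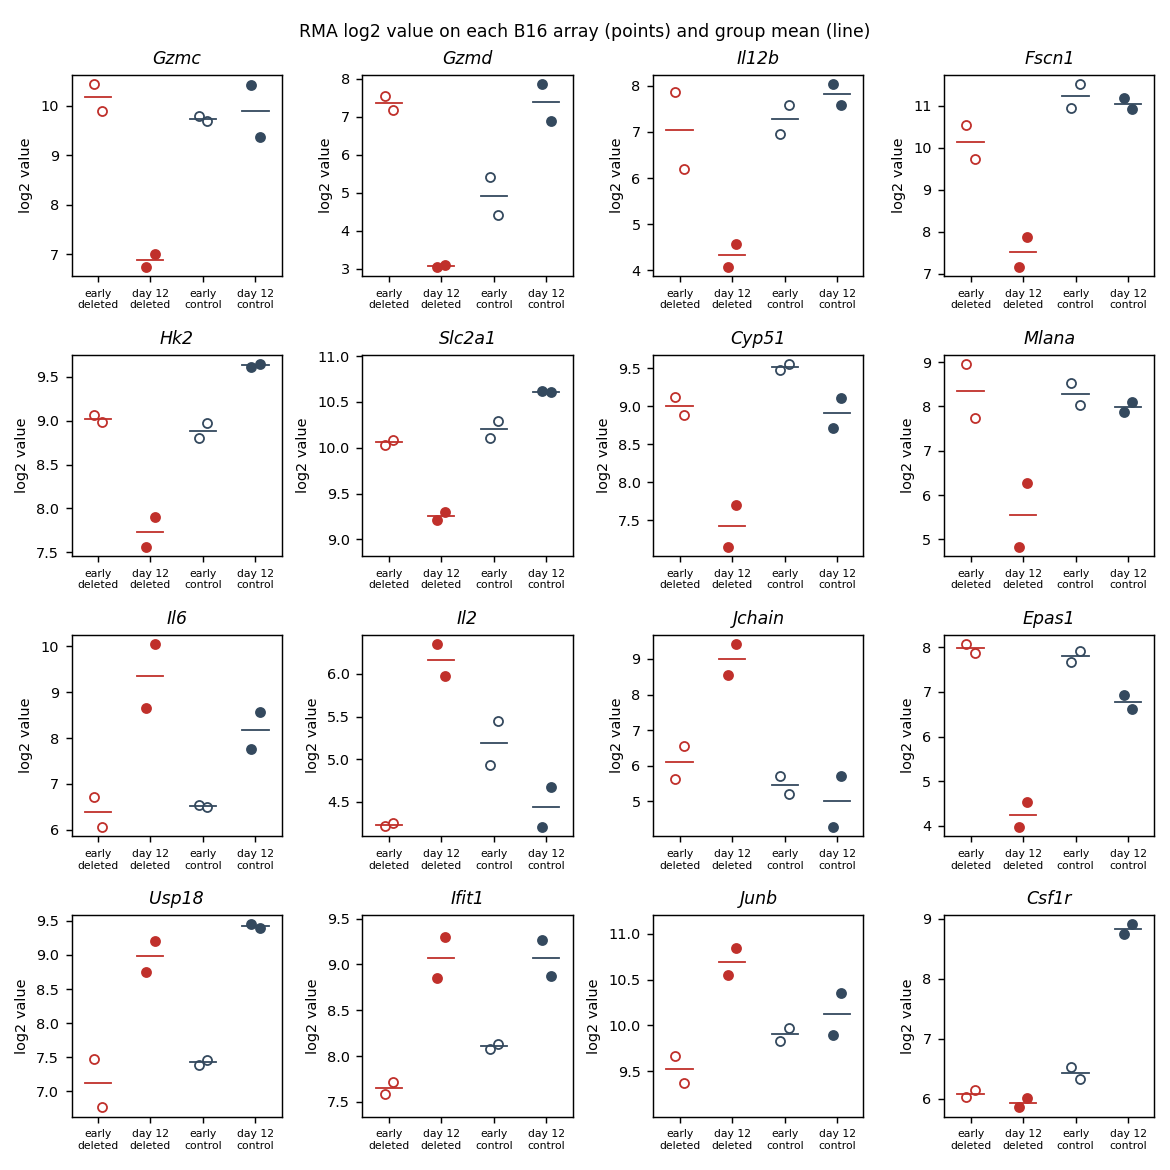
Log2 values of 16 genes on each of the 8 B16 arrays (points; open, early; filled, day 12; red, deleted hosts; blue, control hosts), with group means as lines and 1 panel per gene with its own axis. Gzmd, Il12b, Fscn1, Hk2 and Epas1 are lowest on the 2 day 12 deleted arrays, and Il6, Il2 and Jchain are highest there.

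Mature dendritic cells carry antigen to T cells and supply IL-12. Of 12 measured genes of these cells 4 fell and 8 did not pass, with a median of -0.51. Il12b, a subunit of IL-12 and IL-23, stood at 7.86 and 6.20 early and at 4.08 and 4.58 at day 12, a fall of 2.70 ± 0.42 (6.5-fold, adjusted p = 0.000101). Fscn1, the actin bundler fascin of mature dendritic cells, stood at 10.55 and 9.73 early and at 7.16 and 7.87 at day 12 (-2.62 ± 0.29, adjusted p = 2.1e-06). Early replicate 1 was the higher early array for both. The groups did not overlap, but the rule for naming the largest falls, given below, required this. It is therefore no separate evidence for these falls. One other of the 4 probe sets of Fscn1, below the median of all values, had a change above 0. Marcksl1 (-0.94 ± 0.18) and Socs2 (-0.87 ± 0.25), a suppressor of cytokine signalling, fell as well. In control hosts Il12b stood at 6.95 and 7.59 early and 8.04 and 7.59 at day 12. The difference between genotypes was -3.24 ± 0.60 for Il12b (adjusted p = 0.00108) and -2.44 ± 0.40 for Fscn1 (0.000387), the latter not called with the mean over its probe sets (-0.69, adjusted p = 0.135). Of 11 genes of type 1 dendritic cells, 3 fell, which were Cadm1 (-1.17 ± 0.27), Irf8, a transcription factor of that lineage (-0.61 ± 0.14), and Tlr3 (-0.73 ± 0.24), and Ifi205 rose (0.51 ± 0.12). Another probe set of Tlr3 changed in the opposite direction, and the call for Tlr3 was lost under 7 of 14 alternatives. Of the 11 genes 0 fell without day 12 deleted replicate 1, and without early deleted replicate 1, 1 fell.

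Many measured interferon-stimulated genes rose. Type I interferons induce these genes, many of them antiviral, through an element that pairs GAAA repeats. Of 13 measured genes 8 rose, with a median of 0.51. The promoters of the 2 risers with that pair are shown, 250 bases before the RefSeq start on GRCm38.p6, with 2 GAAA repeats parted by any 2 bases, on either strand, in capitals. Ifit1 lies at chr19:34640639-34640888 and Ifit3 at chr19:34583279-34583528, both on the plus strand, and each holds 2 matches, all on the opposite strand.
Ifit1: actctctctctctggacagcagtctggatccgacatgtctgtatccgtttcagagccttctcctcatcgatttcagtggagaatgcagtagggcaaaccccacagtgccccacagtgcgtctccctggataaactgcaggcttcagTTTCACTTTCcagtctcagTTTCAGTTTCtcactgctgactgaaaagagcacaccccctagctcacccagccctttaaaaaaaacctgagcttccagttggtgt
Ifit3: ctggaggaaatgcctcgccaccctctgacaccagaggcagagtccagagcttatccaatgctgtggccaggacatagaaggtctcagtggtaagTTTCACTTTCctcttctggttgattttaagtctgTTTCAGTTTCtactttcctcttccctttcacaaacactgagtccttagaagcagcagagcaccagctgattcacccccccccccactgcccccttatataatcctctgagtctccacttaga

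Of the 10 list genes with a promoter on record, Ifit1, Ifit3 and Rsad2 held the pair (30.0%), against 3.09% of tested genes with a promoter and 2.98% of all promoters. Ifit1, which binds foreign RNA, stood at 7.58 and 7.71 early and at 8.85 and 9.29 at day 12, a rise of 1.42 ± 0.26 (2.68-fold, adjusted p = 0.000437). Ifit3 stood at 8.68 and 8.50 early and at 9.47 and 9.88 at day 12 (1.08 ± 0.23, adjusted p = 0.00197). Usp18, which limits interferon signalling, rose most, from 7.47 and 6.77 to 8.75 and 9.20 (1.86 ± 0.22, adjusted p = 4.85e-06). For all 8 risers both day 12 arrays lay above both early arrays, as in 28.1% of all genes. Ifit2 (1.11), Mx1 (0.87), Cmpk2 (0.85) and the RNA sensors Ddx58 (0.51) and Ifih1 (0.39) rose too. The calls for Ddx58 and Ifih1 depended on single arrays. Over the alternatives the change ran from 0.37 to 0.75 for Ddx58 and from 0.35 to 0.44 for Ifih1. In control hosts the list's median change was 0.97, and Usp18 stood at 7.39 and 7.46 early and 9.45 and 9.39 at day 12. The difference between genotypes did not pass for the 8 risers. For Usp18 it was -0.14 ± 0.31 (adjusted p = 0.887) and for Ifit1 0.46 ± 0.37 (0.596). Oasl1 (-1.73 ± 0.45, adjusted p = 0.0195), Oasl2 (-1.60 ± 0.27, 0.0005) and Rsad2 (-1.21 ± 0.36, 0.0452), which were not called in deleted hosts, had a lower change there than in control hosts. That count of 3 was 1 without day 12 deleted replicate 1, early deleted replicate 1, day 12 control replicate 1 or either early control array.

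Of 15 genes that respond to interferon gamma, 3 rose, namely the immunity-related GTPases Irgm2, Iigp1 and Tgtp1. Irgm2 stood at 6.83 and 6.52 early and at 8.23 and 8.16 at day 12 (1.52 ± 0.31, adjusted p = 0.0014). Without either day 12 deleted array, or without early deleted replicate 2, 1 of the 15 rose. The T cell chemokine Cxcl9 did not pass, with 9.84 and 9.38 early and 9.90 and 10.26 at day 12 (0.47 ± 0.21, adjusted p = 0.142). In control hosts Cxcl9 stood at 9.68 and 9.74 early and 11.27 and 11.33 at day 12, for a difference between genotypes of -1.13 ± 0.29 (adjusted p = 0.0202). Cxcl10, Cxcl11 and Gbp2 also had a lower change in deleted hosts, and 2 of these 4 calls were left without day 12 or early deleted replicate 1.

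Immediate early genes encode transcription factors and phosphatases induced within minutes of a stimulus. Of 15 measured 7 rose and 8 did not pass, with a median of 0.51 in deleted and 0.49 in control hosts. Btg2, an anti-proliferative gene, stood at 10.76 and 10.81 early and at 12.14 and 12.16 at day 12, a rise of 1.37 ± 0.16 (adjusted p = 4.5e-06). Nr4a1, a nuclear receptor induced by antigen receptor signals, stood at 10.48 and 10.51 early and at 11.62 and 11.65 at day 12 (1.14 ± 0.17, adjusted p = 4.88e-05). Dusp1 (0.96), Fos (1.09), Junb (1.17), Ier2 (0.83) and Jun (0.92) rose as well. All 7 had both day 12 arrays above both early arrays, as in 28.1% of all genes. The difference between genotypes was called for 3 of the 15. For Junb the change was higher in deleted hosts (difference 0.96 ± 0.26, adjusted p = 0.0271). For Atf3 (-1.42 ± 0.32, adjusted p = 0.00655) and Ier3 (-1.83 ± 0.39, adjusted p = 0.00474), neither called in deleted hosts, it was lower there, and both calls were lost without day 12 or early deleted replicate 1. The call for Junb was lost without either early control array, day 12 control replicate 1, day 12 deleted replicate 2 or early deleted replicate 2. The 3′ minus 5′ difference of Gapdh given above was larger at day 12 along with these genes, and its part in the result was not tested.

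Of 13 measured inflammatory cytokine genes 2 rose, 2 fell and 9 did not pass, with a median change of -0.03. The risers were Il6 and Lif, the fallers Il12b and Tgfb1, and 1 rise was left when any of the 4 arrays was left out. Il6, the inflammatory cytokine, stood at 6.71 and 6.06 early and at 8.65 and 10.05 at day 12, a rise of 2.97 ± 0.49 (7.84-fold, adjusted p = 0.000165). Il2, the T cell growth factor, which is not on that list, stood at 4.22 and 4.24 early and at 6.35 and 5.97 at day 12 (1.93 ± 0.36, adjusted p = 0.000595). Il4, a cytokine of basophils and helper T cells and also off that list, stood at 3.31 and 3.13 early and at 4.41 and 6.80 at day 12 (2.38 ± 0.74, adjusted p = 0.0276). Both early values of Il4 lay below the median of all values. The 2 day 12 arrays were close for Il2 and far apart for Il4, where replicate 2 set the value. Without that array the Il4 change was 1.19 and not called (adjusted p = 0.45), and leaving out either early array ended its call as well. Il2 in control hosts stood at 4.93 and 5.44 early and at 4.20 and 4.67 at day 12, the other direction, and the difference between genotypes was 2.68 ± 0.51 (adjusted p = 0.00157). For Il6 the control change was 1.65 and the difference did not pass (1.32 ± 0.69). Lif, a cytokine related to Il6, rose by 1.20 ± 0.39, a call lost under 8 of 14 alternatives, among them leaving out each of the 4 arrays (change 0.52 to 1.43, adjusted p up to 0.236). Tgfb1, the immunosuppressive cytokine TGF-β1, fell by 0.82 ± 0.16 (adjusted p = 0.00102).

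Of 6 measured genes of antibody-secreting cells 1 rose, Jchain, 1 fell, Xbp1, and 4 did not pass. Jchain, which joins polymeric IgA and IgM, stood at 5.63 and 6.56 early and at 8.55 and 9.42 at day 12, a rise of 2.89 ± 0.59 (7.41-fold, adjusted p = 0.00129). Iglv1, a variable segment of the lambda light chain that is on no list, stood at 4.55 and 3.85 early and at 6.26 and 9.75 at day 12 (3.80 ± 0.83, adjusted p = 0.00219). Its day 12 arrays were far apart, and without replicate 2 it was not called (2.06, adjusted p = 0.116). Jchain in control hosts stood at 5.72 and 5.20 early and 4.28 and 5.72 at day 12. Jchain's difference between genotypes was 3.35 ± 0.84 (adjusted p = 0.0148), and the call was lost without day 12 control replicate 1, day 12 deleted replicate 2, early control replicate 1 or early deleted replicate 1, with adjusted p up to 0.118. Xbp1, the transcription factor of antibody secretion that other secretory cells also use, fell by 0.61 ± 0.11. Of 11 B cell genes limma called 0, 0 had an unadjusted p under 0.05, and 6 lay below the median of all values early.

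Few lymphocyte identity genes were called, and the counts depended on single arrays. Of all genes 9.14% rose, and whether the T cell, quiescence, inhibitory receptor or NK cell list exceeded that share was not tested. Of 18 T cell genes 2 rose, the transcription factor Bcl11b (1.38 ± 0.41, adjusted p = 0.0235) and Ubash3a, a damper of T cell receptor signalling (1.00 ± 0.26). The other probe set of Ubash3a had a change below 0. Of 8 genes of T cell quiescence and memory, 2 rose: Klf2, which keeps T cells circulating, at 8.94 and 9.11 early and 9.72 and 10.55 at day 12 (1.11 ± 0.27, adjusted p = 0.00539), and Slamf6 (0.67 ± 0.21). Of 8 inhibitory receptors, Cd244a (0.95 ± 0.18) and Btla (0.79 ± 0.24) rose. Of 11 NK cell genes 2 rose, led by the activating receptor Ncr1, at 7.62 and 7.32 early and 8.66 and 9.11 at day 12 (1.41 ± 0.38, adjusted p = 0.0111), and Klrc2 rose near the dim end (0.51 ± 0.15). Without day 12 deleted replicate 2, or without early deleted replicate 1, 0 of the T cell genes and 0 of the quiescence genes rose. Without early deleted replicate 2, 0 of the NK cell genes and 1 of the inhibitory receptors rose. Trgv1, a segment of the gamma chain of the T cell receptor, rose by 2.09 ± 0.45. Trat1, which stabilises the T cell receptor, did not pass in deleted hosts (1.11 ± 0.44, adjusted p = 0.096), but its change differed between genotypes (2.09 ± 0.63, adjusted p = 0.0475). That call was lost under 11 of 17 alternatives, with adjusted p up to 0.274.

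Macrophage genes changed differently in the 2 genotypes. Macrophages clear debris, present antigen and shape the tumour's stroma. Of 17 measured macrophage genes, 15 had a lower change in deleted hosts, and the median change was -0.52 in deleted and 1.78 in control hosts. Csf1r, the growth factor receptor of the lineage, stood at 6.02 and 6.15 early and at 5.86 and 6.01 at day 12 in deleted hosts. In control hosts it stood at 6.53 and 6.33 early and at 8.74 and 8.91 at day 12. For Csf1r the difference was -2.55 ± 0.29 (adjusted p = 8.85e-06), while the deleted change was -0.15 ± 0.21. Ms4a7 fell from 6.57 and 5.42 to 3.82 and 4.25 in deleted hosts (-1.96 ± 0.38, adjusted p = 0.000862), and stood at 6.58 and 6.25 early and 8.96 and 8.67 at day 12 in controls. Its difference was -4.36 ± 0.54 (adjusted p = 2.45e-05). The other probe set of Ms4a7 had a change of -0.08 in deleted hosts.

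Within deleted hosts, 5 of the 17 macrophage genes fell and 1 rose. Besides Ms4a7 these were Gpnmb (-2.27 ± 0.43), the complement genes C1qc (-1.36 ± 0.34) and C1qb (-1.03 ± 0.35, a call lost under 9 of 14 alternatives), and Pf4 (-1.81 ± 0.61). Gpnmb is also a gene of melanocytic cells. Lyz2, the lysozyme of macrophages, monocytes and neutrophils, rose from 11.24 and 10.51 to 11.59 and 11.67 (0.76 ± 0.16, adjusted p = 0.00129). These counts rest on the early pair, of which replicate 1 held the higher mean. Without early replicate 1, 2 genes fell and 2 rose, and without early replicate 2, 13 fell and the rise was lost. Without day 12 replicate 1, 2 fell. The fall of Pf4 was not called under 8 of 14 alternatives, among them leaving out either day 12 array or early replicate 1, with adjusted p up to 0.793. The change was lower in deleted hosts for 10 to 16 of the 17 genes when each of the 8 arrays was left out in turn.

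**Figure D3:**
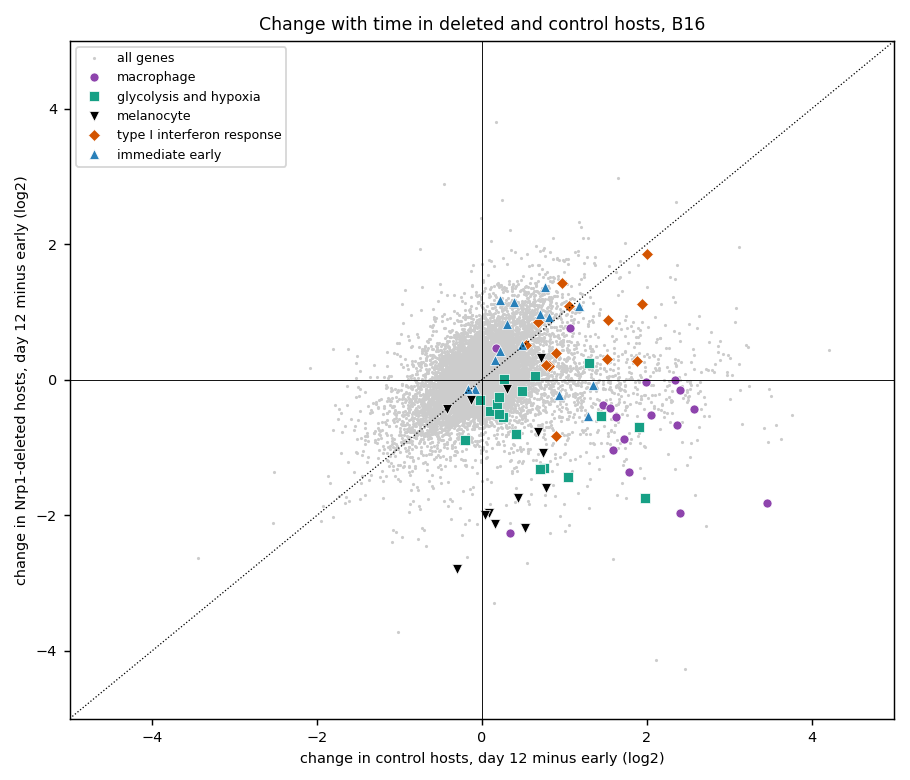
Change with time of each gene in control hosts (horizontal) and deleted hosts (vertical), both as day 12 minus early on the log2 scale, over 17097 genes, with 5 lists marked; the dotted line marks equal changes. Most macrophage genes lie to the right and near or below 0, most melanocyte genes lie below 0, and 12 of 13 interferon genes lie above 0 in deleted hosts.

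Other myeloid lists also had genes with lower changes in deleted hosts. Some lists share members, so their counts are not independent. Mrc1, Fcgr1, C1qb and C1qc, for example, are on the macrophage list and on another list counted here or below. Of 18 genes of alternatively activated macrophages, 2 fell in deleted hosts and 11 had a lower change than in controls, where the median was 2.03. Arg1, the arginine-consuming enzyme of such cells, stood at 7.55 and 5.34 early and 4.86 and 6.28 at day 12 in deleted hosts. In control hosts it stood at 7.56 and 8.68 early and 11.72 and 11.78 at day 12, for a difference of -4.50 ± 0.75 (adjusted p = 0.000381). Dab2, an endocytic adaptor, had values of 5.98 and 3.64 early and 3.70 and 4.09 at day 12, against 6.50 and 6.69 early and 9.89 and 10.23 at day 12 in controls (difference -4.38 ± 0.66, adjusted p = 0.000159). For both genes the early and day 12 arrays of deleted hosts overlapped, and those of control hosts did not. Without day 12 deleted replicate 1 or early control replicate 1, 6 of the 18 genes had a lower change.

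Of 11 MHC class II genes, which present antigen to CD4+ T cells, limma called 0 in deleted hosts, and 1 had an unadjusted p under 0.05. Their median change was 0.07 in deleted and 1.40 in control hosts, and 7 had a lower change in deleted hosts. Cd74, the invariant chain, stood at 9.69 and 8.75 early and 9.03 and 9.38 at day 12 in deleted hosts, and at 9.99 and 10.42 early and 11.51 and 11.73 at day 12 in controls. Its difference was -1.43 ± 0.32 (adjusted p = 0.00579). The count of 7 fell to 2 without early deleted replicate 1, to 3 without early control replicate 1, and to 4 without day 12 deleted replicate 1 or day 12 control replicate 2. All 6 Fc gamma receptor genes, receptors for antibody, had a lower change in deleted hosts, such as Fcgr3 (-2.16 ± 0.31, adjusted p = 0.000103). So did 9 of 13 lysosome genes, which were 9 without each of the 8 arrays in turn. Of 12 complement genes 9 did (5 without day 12 deleted replicate 1), of 12 monocyte genes 7 (2 without day 12 or early deleted replicate 1) and of 11 metalloproteinase genes 5 (3 without either of those or without day 12 control replicate 2 or early control replicate 1). Among monocyte genes, the chemokine receptor Ccr2 rose in deleted hosts, from 9.91 and 9.84 to 10.61 and 10.84 (0.85 ± 0.20, adjusted p = 0.00363), with a control change of 1.16 and no called difference (-0.32 ± 0.28).

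Chemokines of monocytes and T cells split. Of 13 measured, Ccl3, Ccl4 and Ccl6 rose and Ccl8 and Cxcl16 fell. Ccl8, a monocyte attractant of tissue macrophages, stood at 9.88 and 8.87 early and at 6.47 and 7.0 at day 12, a fall of 2.65 ± 0.46 (6.26-fold, adjusted p = 0.000272). In control hosts it stood at 9.26 and 9.57 early and 10.96 and 11.05 at day 12, and the difference was -4.24 ± 0.65 (adjusted p = 0.000174). The count of 2 falls was 4 without day 12 or early deleted replicate 2 and 1 without early deleted replicate 1. Ccl6 overlapped between early and day 12 arrays (9.97 and 8.19 early, 9.64 and 10.75 at day 12). Its call was lost under 9 of 14 alternatives, among them leaving out replicate 2 at either time, with the change between 0.23 and 2.01 and adjusted p up to 0.789.

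Melanocyte genes, listed as markers of the B16 tumour cell, were measured as well. Kit among them is also on the mast cell and basophil list, so not every member is particular to tumour cells. Of 13 genes 8 fell, with a median of -1.60. Mlana, a melanosome antigen, stood at 8.96 and 7.74 early and at 4.83 and 6.28 at day 12, a fall of 2.80 ± 0.43 (6.94-fold, adjusted p = 8.51e-05). Mitf, the master transcription factor of melanocytes, stood at 7.80 and 6.79 early and at 5.33 and 6.07 at day 12 (-1.60 ± 0.24, adjusted p = 7.61e-05). Pmel (-2.13), Tyr (-2.19), Slc45a2 (-1.99), Tyrp1 (-1.96), Dct (-1.74) and Sox10 (-1.09) fell as well, though another probe set of Sox10 changed in the opposite direction. In control hosts the mean of the 13 genes was 6.49 and 6.21 early and 6.55 and 6.69 at day 12. The early mean of each of the 13 exceeded the median of all values, and 2 of the 13 lay below the median of all values at day 12. The difference between genotypes passed for 8 of 13, all lower in deleted hosts, but for 2 without day 12 deleted replicate 1 or without early deleted replicate 1. It passed for 4 without day 12 control replicate 2 and for 5 without early control replicate 1. The part of tumour cell RNA in the falls of Hk2, Slc2a1, Hmox1, Gpnmb, cholesterol genes and the other lists was not tested. Of 17 fibroblast genes 1 fell (5.88%, against 7.09% of all genes), Sparc (-2.26 ± 0.43), and 11 lay below the median of all values early. Of 11 endothelial genes limma called 0, 0 had an unadjusted p under 0.05, with means of 3.66 and 3.61 early and 3.64 and 3.78 at day 12.

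**Figure D4:**
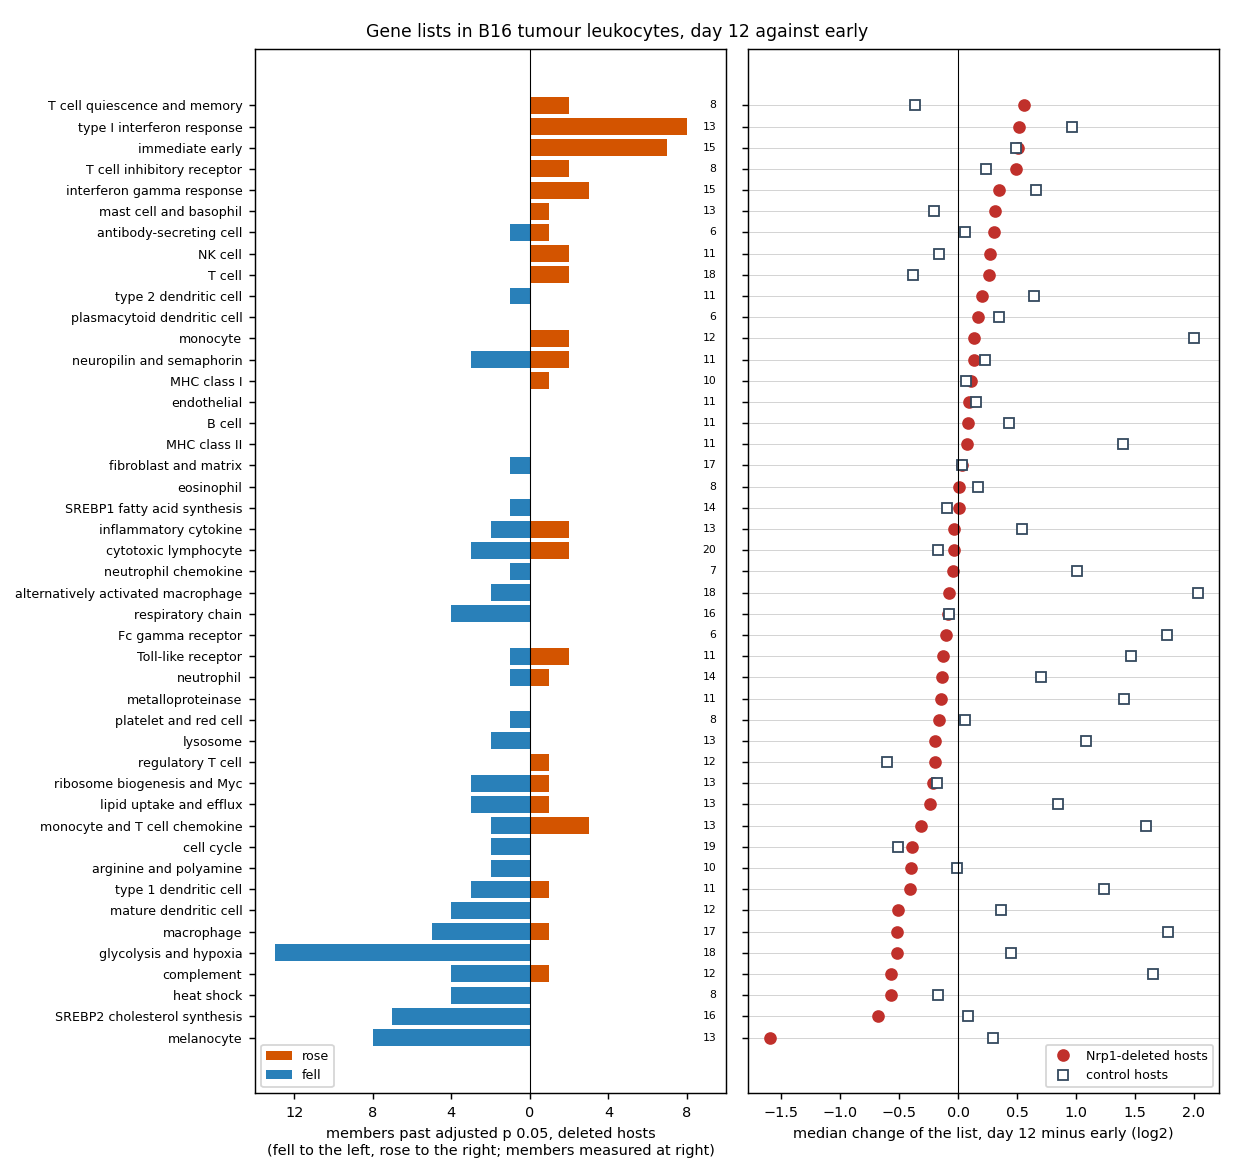
Left, number of genes of each of 45 lists past an adjusted p of 0.05 in deleted hosts (fell to the left, rose to the right, genes measured at right). Right, median change of each list in deleted hosts (red circles) and control hosts (open squares), log2. The glycolysis list has the most falls, 13 of 18, and the interferon list the most rises, 8 of 13; macrophage lists lie near or below 0 in deleted hosts and between 1.78 and 2.03 in control hosts.

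The other large changes named here did not belong to the lists. Stfa3, a stefin that inhibits cysteine proteases, stood at 3.0 and 3.02 early and 5.90 and 5.42 at day 12 (2.65 ± 0.21, adjusted p = 4.63e-08). Its early values lay below the median of all values, and with the early side set to that median it was at least 4.05-fold higher at day 12. It had a difference between genotypes of 2.41 ± 0.30. Cd200r1, an inhibitory receptor of myeloid and T cells, stood at 5.31 and 4.59 early and 7.71 and 7.42 at day 12 (2.62 ± 0.22, adjusted p = 7.47e-08) and had a control change of 2.36. The remaining named rises, between 1.96 and 2.32, were Fyco1, an adaptor of autophagosome transport, Spo11, a nuclease of meiosis, Thap2, Asb13, Trim34a, Prr5l, Igip and Bcl11a. The early means of Thap2 and Bcl11a and the day 12 means of Ovol2 and Speer1, below, also lay under that median, so that their sizes are uncertain. Nrarp, a feedback inhibitor of Notch signalling, stood at 8.58 and 8.60 early and 6.13 and 5.80 at day 12 (-2.62 ± 0.34, adjusted p = 1.37e-05), and at 9.17 and 9.16 early and 5.19 and 6.25 at day 12 in controls. Ramp3, a partner of peptide hormone receptors, fell from 8.82 and 8.69 to 6.39 and 6.32 (-2.40 ± 0.30, adjusted p = 7.44e-06). Eif4e, which binds the cap of messenger RNA, fell by 2.29 ± 0.32, and Ovol2, Slc66a2 and Speer1 fell by between 2.32 and 2.46. Another of the 3 probe sets of Slc66a2 had a change of -0.08.

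In MC38 tumours of deleted hosts, day 18 against day 6, the lists had other values. The median change was 0.14 for glycolysis and hypoxia, -0.31 for cholesterol synthesis, -0.33 for type I interferon genes, -0.31 for immediate early genes and 0.33 for macrophage genes. Hk2 changed by -0.24 there, Il12b by -0.20, Il6 by -0.75 and Jchain by 0.63. Ccl8 had a change of -3.03. The days and the tumour differ, and the difference from B16 was not tested.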

How the data were processed

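Labelled RNA of CD45-sorted tumour cells was hybridised to 1-colour mouse expression arrays. The authors deposited log2 values of 45141 probe sets, which the submitters' processing notes say were made by RMA in Partek 6.6. RMA subtracts background, forces arrays to share 1 distribution and so hides a shift of all genes, and sums probes into probe sets. The arrays' sorted values fell into 3 sets, and all 8 B16 arrays used here shared 1 of them. RMA values carry no read depth, and precision is limited by having 2 arrays a group.

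Of the probe sets 28898 named 1 gene, 551 several and 15692 none. Probe sets naming 1 gene were reduced to 17097 genes by the highest mean over 28 arrays. Group means were fitted for all 12 groups with limma 3.58.1 (trended eBayes, R 4.3.3), with no filter, 2-sided tests and Benjamini-Hochberg adjustment over all genes at 0.05. The planned test had no replicate block, and replicates had no shared animal or batch in the labels.

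The members and the 45 lists were chosen with earlier results of these data known. Genes were named by a rule: the 15 largest rises and falls past the threshold whose higher mean exceeded 3.64, the median of all values, and whose groups did not overlap, passing over predicted and clone names. The 5 largest differences between genotypes in each direction, the first 2 members of each list and up to 6 further members with the smallest adjusted p, and Nrp1, Foxp3 and Ptprc were added. Aldoa, Atf3, Bnip3, Cd74, Cxcl11, Fdft1, Gapdh, Gbp2, Ier3, Ndrg1, Oasl1, Oasl2 and Rsad2 fall outside the rule and were named after their values were seen. In simulated data with 17097 genes, 67, 67 and 66 were changed by 0.5, 1 and 2 on the log2 scale. The test of time in deleted hosts recovered 19.4%, 76.1% and 100% of them. Far fewer genes changed there than were called in the data, so recovery in the data may differ. The test of the difference recovered 5.97%, 40.3% and 92.4%. Promoters came from RefSeq on GRCm38.p6. Alternatives were a filter on low values, the mean of a gene's probe sets, 2 further scalings, other variance models, array weights, fits on 8 or 4 arrays, a replicate block, and leaving out each array.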

Additional observations from a re-analysis of the deposited data

Results flagged for a closer look

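The test of the difference between genotypes, the change with time in deleted hosts minus that in control hosts, called 1075 genes at an adjusted p of 0.05 with limma, and 3091 had an unadjusted p under 0.05. The 5 largest on each side by the rule for named genes follow as values. The difference was 3.35 for Jchain, 2.68 for Il2, 2.41 for Stfa3, 2.25 for Septin4 and 2.09 for Trat1. Septin4, a septin of the cytoskeleton, stood at 4.85 and 5.44 early and 6.66 and 6.28 at day 12 in deleted hosts, and at 6.10 and 5.69 early and 5.38 and 4.55 at day 12 in control hosts (2.25 ± 0.49, adjusted p = 0.00527). Its call was lost without day 12 control replicate 2 (adjusted p = 0.0506).

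On the other side the difference was -6.73 for Gzmd, -6.24 for Gzme, -5.27 for Pf4, -4.50 for Arg1 and -4.38 for Dab2. Pf4, a chemokine of platelets and macrophages, stood at 6.63 and 3.78 early and 3.18 and 3.60 at day 12 in deleted hosts, and at 5.93 and 7.11 early and 9.56 and 10.39 at day 12 in control hosts. The early deleted arrays were far apart for Pf4, and the difference ran from -6.70 to -3.85 over the alternatives, with adjusted p up to 0.00475.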

How the results depend on the processing

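In deleted hosts 2776 genes were called, and 2465 to 3350 under the alternatives that kept all the arrays compared. Leaving out 1 array gave 1637 to 1909. The test of the difference called 1075 genes, but 1813 with array weights and 1711 in the fit on 8 arrays, 936 to 1385 under the others that kept all arrays, and 601 to 980 with 1 array left out. Of the 122 named genes called in deleted hosts, 71 stayed called without each of the 4 arrays in turn, and none of the 122 changed direction under any alternative run. Of the 75 called differences 40 stayed called without each of the 8 arrays. Changes that were not called reversed as follows. With cyclic loess Cd74 changed by 0.057, Cxcl10 by 0.021 and Gbp2 by 0.076, and with the mean of probe sets Gbp2 by 0.13. When each deleted array was left out in turn, the change ran from -0.48 to 0.46 for Cd74, from -0.37 to 0.28 for Cxcl10, from -0.61 to 0.34 for Cxcl11 and from -0.030 to 0.029 for Gbp2. It ran from -1.98 to 0.23 for Arg1, from -2.09 to 0.26 for Dab2, from -0.50 to 0.36 for Atf3, from -0.12 to 0.31 for Foxp3, from -0.001 to 0.54 for Oasl2 and from -0.033 to 0.63 for Rsad2. The cause of these reversals was not tested.

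With the replicate number as a block, 2596 genes were called in deleted hosts and 957 differences. Same-numbered arrays deviated from their group means with a correlation of -0.0945 in deleted and 0.0876 in control hosts. The labels do not tell whether such arrays share an animal or a batch, and these correlations cannot decide it. The block ended the calls of 6 of the 122 named genes and 5 of the 75 differences.

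With 2 arrays a group, changes of 0.5 on the log2 scale were mostly missed in the simulation, which changed far fewer genes than were called in the data. Values below the median of all values, such as those of Foxp3, carry little signal over background.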

Other observations

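Heat shock genes encode chaperones. Of 8 measured in deleted hosts 4 fell, with a median change of -0.57 and all 8 below 0, and 0 to 2 fell when each of the 4 arrays was left out in turn. Hsp90aa1, a cytosolic chaperone, stood at 11.60 and 11.72 early and at 10.73 and 10.97 at day 12 (-0.81 ± 0.19, adjusted p = 0.00391). Hspa1b, the inducible Hsp70, stood at 10.31 and 10.76 early and 8.59 and 9.87 at day 12 in deleted hosts, and at 9.03 and 9.63 early and 11.22 and 11.28 at day 12 in control hosts (difference between genotypes -3.22 ± 0.57, adjusted p = 0.000759). Of 13 genes listed for ribosome biogenesis and Myc, 3 fell, 1 rose and 9 did not pass. Nolc1 (-0.83 ± 0.13), Nop58 (-0.45 ± 0.13) and the polyamine enzyme Odc1 (-0.86 ± 0.29) fell, and Myc, a transcription factor, rose by 0.83 ± 0.16, from 8.17 and 8.15 to 8.83 and 9.15. Without either day 12 array, or without early replicate 1, 1 of the 3 fell. Myc changed by 0.08 in control hosts, and its difference of 0.75 ± 0.22 (adjusted p = 0.0473) was not called when any of the 8 arrays other than day 12 deleted replicate 1 was left out.

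Of 19 cell cycle genes 18 had a change below 0. Both day 12 arrays lay below both early arrays for 18, against 25.7% of all genes. At the adjusted threshold 2 of the 19 fell (10.5%), against 7.09% of all genes. These were Mcm3 (-0.51 ± 0.16) and the polymerase clamp gene Pcna (-0.34 ± 0.09). Neither was called when any of the 4 arrays was left out. The list's median change was -0.39 in deleted and -0.51 in control hosts. Among the genes listed for neuropilins and semaphorins, Sema7a stood at 7.85 and 8.14 early and at 6.40 and 6.42 at day 12 (-1.58 ± 0.29, adjusted p = 0.000454). Its change was called lower in deleted than in control hosts, a call lost under 9 of 17 alternatives (difference -1.61 to -0.99). Sema4a, a ligand for Treg neuropilin-1, rose by 0.77 ± 0.15. Of 14 measured genes on the neutrophil list 1 fell, 1 rose and 12 did not pass, with a median change of -0.13. The called share was 14.3%, against 16.2% of all genes. The faller was Il1r2, a decoy receptor for interleukin-1. It stood at 8.80 and 8.43 early and 6.76 and 7.05 at day 12 in deleted hosts. Its control change was 0.89 (difference -2.60 ± 0.50, adjusted p = 0.00165).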
